A study of Xenopus laevis with 2 samples.

Results

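The genes described here encode the subunits of ion pumps that spend ATP to move protons, sodium and calcium across membranes, as read in Xenopus laevis animal caps expressing xnr2, a Nodal-related ligand of the TGF-beta family. They were taken by a rule on gene names, set with earlier results of these data known. The rule takes every gene model whose symbol begins as an ATP6V or ATP6AP name (the vacuolar proton pump and its accessory proteins). It also takes ATP1 with a subunit letter (the sodium pump) and ATP4A, ATP4B and ATP12A (the H,K pumps). ATP2B (calcium pumps of the plasma membrane) and ATP2C (calcium pumps of the secretory pathway) complete it. This gave 38 symbols and 73 gene models, out of 13465 symbols and 24364 models in the table. Models carry the names of human genes, and X. laevis is an allotetraploid frog, so that a symbol can hold an L and an S copy, named after the chromosomes of its 2 subgenomes, and at times a paralog as well. A model is written here as its symbol with its chromosome, for example ATP1B3 (5L).

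Both libraries belong to 1 group: ectodermal explants (animal caps) from embryos that had received xnr2 RNA at the 2- to 4-cell stage, cut at stage 10, cultured, and harvested at stage 14. Each library came from 10 pooled explants, and the labels number them 1 and 3 and state no strain. The labels do not say whether these pools are separate clutches, and SDs over them may therefore measure technical spread alone. The p-values given below compare the reads of the 2 libraries and cover counting error only. Caps without xnr2 were not analysed here, so that every value is a level in xnr2 caps and none is a response to xnr2. Library 1 held 25880104 exon reads and library 3 held 29238297. Levels are given in CPM (reads of a model per 1000000 exon reads) and, where subunits of a pump are ranked, also in RPKM (CPM per kilobase of exon). Other levels, among them the sums of marker lists and most partner genes, are in CPM, which is not scaled to exon length. Errors are SDs over the 2 libraries, and positions are given on assembly version 9.1.

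Marker genes showed muscle RNA far above epidermal RNA in these ectodermal explants. Skeletal muscle markers summed to 20101 CPM in library 1 and 19779 CPM in library 3, with 12 of 13 models at 1 CPM or more in both libraries. Epidermis markers summed to 97.4 CPM in library 1 and 14.0 CPM in library 3, with 4 of 19 models at that level. Neural markers summed to 18.6 and 22.2 CPM, and multiciliated cell markers to 33.0 and 47.1 CPM, in libraries 1 and 3. SOX2 of the neural list is not among the symbols. Neural markers differed in direction, as NCAM1 (7L) had 1.00 and 2.77 CPM and PAX6 (4S) 1.24 and 0.308 CPM. Most of the multiciliated sum was DNAI1 (1L), with 23.7 and 33.2 CPM, while MCIDAS had at most 2 reads in any model and library. Its members did not move together, as DNAH9 (9_10S) had 3.36 and 9.92 CPM and FOXJ1 (9_10S) 5.45 and 3.42 CPM. Ionocyte markers are given with the ionocyte-type pump subunits. In RNA from whole explants, fewer cells of a type and less RNA per cell cannot be told apart.

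The vacuolar proton pump, or V-ATPase, is a rotary machine: its cytosolic V1 sector splits ATP and its membrane V0 sector carries protons into endosomes, lysosomes and secretory vesicles, or out of the cell where it sits in the plasma membrane. Most subunits have a form that nearly all cells use, and several have a second form that mammals use in kidney intercalated cells and other acid-secreting cells. The frog's embryonic epidermis has ionocytes, proton-pumping cells that are rich in V-ATPase. The sodium pump, an alpha and a beta subunit that exchange sodium for potassium, sets the ion gradients of nearly every animal cell. The related H,K pump is known in early Xenopus embryos for its part in left-right patterning. Calcium pumps keep the cytosol low in calcium, and in muscle the pump of the sarcoplasmic reticulum is the main one.

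Of the 73 models, 50 (68.5%) reached 1 CPM in both libraries, where 62.8% of all models in the table did. At 10 CPM the count was 23 of 73, against 37.1% of all models. No read was seen in either library for 6 of the 73, where 9.26% of all models had none. Together the pump models took 0.334% of exon reads in library 1 (95% Clopper-Pearson interval 0.332 to 0.336%) and 0.324% in library 3 (0.322 to 0.326%). These intervals cover counting error only. The V-ATPase with its accessory proteins took 459 CPM in library 1 and 610 CPM in library 3.

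**Figure D1:**
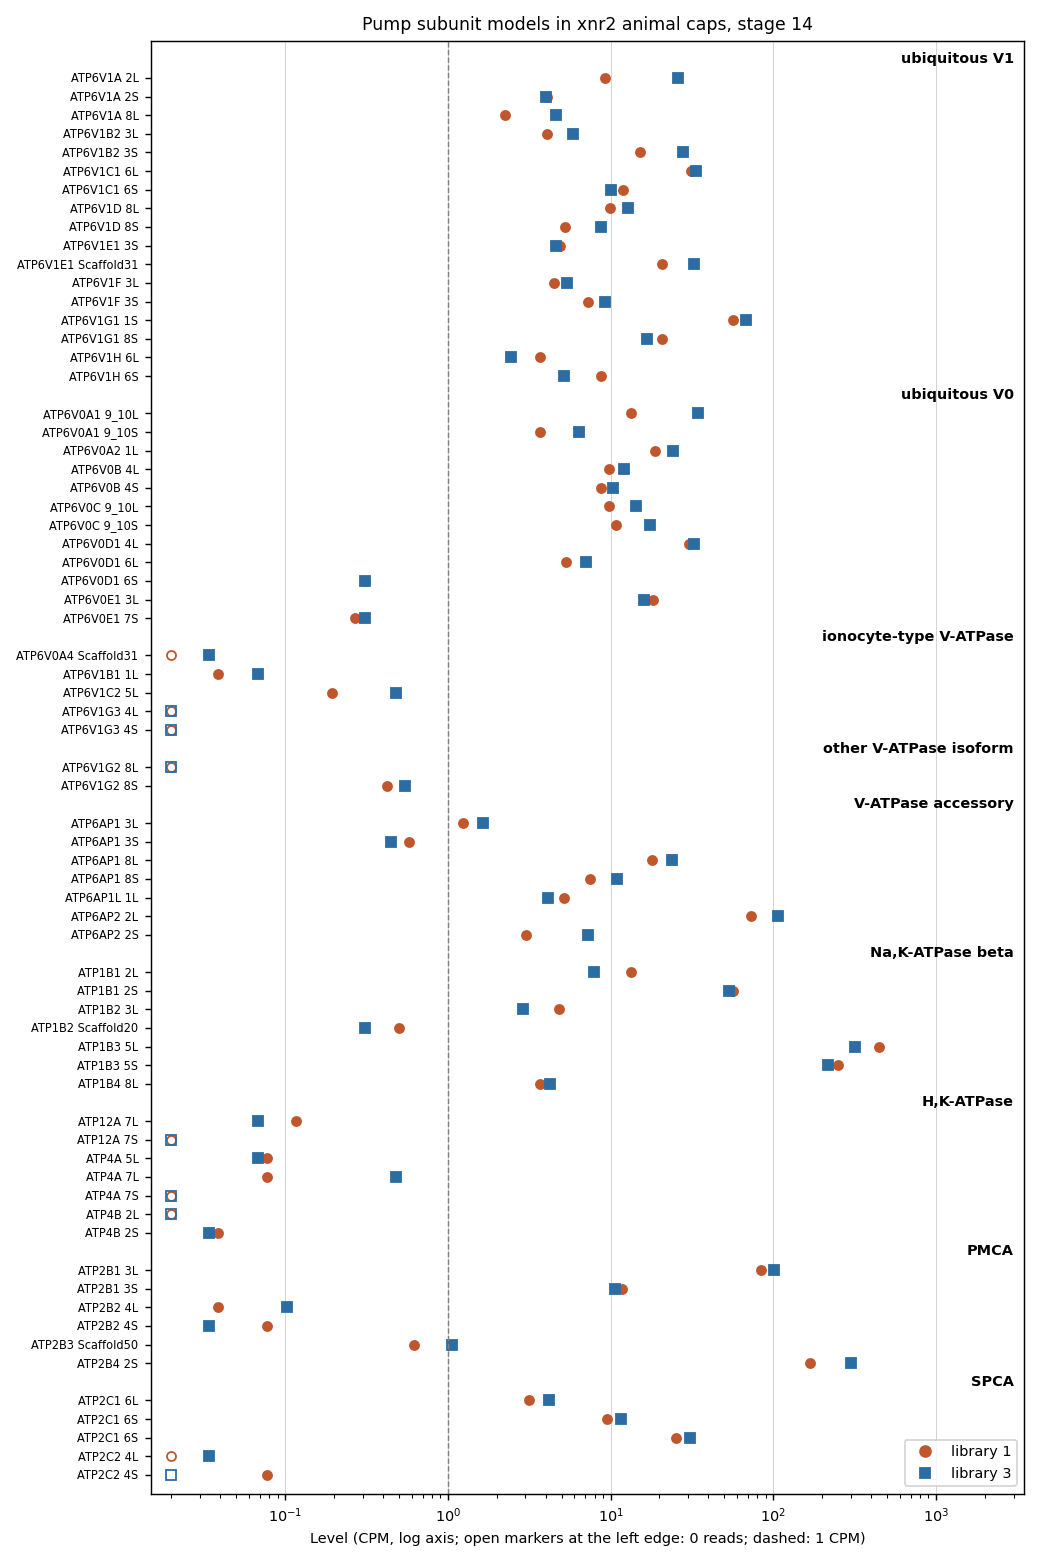
Level of each of 68 pump models in CPM (log axis) in library 1 (circles) and library 3 (squares), grouped by role, with open markers for 0 reads. Both models of ATP1B3 lie at 217 CPM or more, while no model of the H,K pumps and none of the 5 ionocyte-type V-ATPase models reaches the dashed line at 1 CPM; the 2 lines labelled ATP2C1 6S are adjacent models.

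Of the sodium pump, the beta subunits are described, which escort the catalytic subunit to the membrane and tune its activity. Among them ATP1B3 stood first. ATP1B3 (5L), at 128367784 to 128390517 on the plus strand, had 449 CPM in library 1 and 320 CPM in library 3. ATP1B3 (5S), at 110240958 to 110272677 on the plus strand, had 251 CPM in library 1 and 217 CPM in library 3. Its sum of 382 ± 71.7 RPKM was 89.9% of all beta signal in library 1 and 88.6% in library 3. ATP1B1, the common beta form of most mammalian tissues, followed at 41.2 ± 4.01 RPKM. Its S copy (2S) had 56.5 and 53.6 CPM and its L copy (2L) 13.3 and 7.90 CPM in libraries 1 and 3. The S model shares 728 bases of its span with NME7 on the opposite strand and lies within the span of CCDC80. As the library kit does not mark strand, reads of NME7 there cannot be told from those of ATP1B1.

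ATP1B4 and ATP1B2 were the lowest beta genes. ATP1B4, a muscle protein that in placental mammals no longer serves the pump, had 3.71 CPM in library 1 and 4.28 CPM in library 3 (8L), or 2.55 ± 0.255 RPKM. ATP1B2, known from the mammalian brain, had 4.83 and 2.91 CPM (3L) and, from its model on Scaffold20, 13 and 9 reads. The 2.01 ± 0.702 RPKM of ATP1B2 overlapped the range of ATP1B4, so their order is not settled by these libraries.

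All 8 ubiquitous V1 subunits were present, and all 17 of their models reached 1 CPM in both libraries. Per kilobase the peripheral stalk subunit ATP6V1G1 stood apart at 72.3 ± 3.77 RPKM, through its models on 1S, with 56.3 CPM in library 1 and 68.1 CPM in library 3, and on 8S, with 20.8 and 16.8 CPM. No named RefSeq locus was matched to the 1S model, which held most of this level. The 8S model alone had 22.9 and 18.4 RPKM, only just above the 17.9 and 17.8 RPKM of ATP6V1C1. ATP6V1C1, which links the stalk to the V0 sector, came next at 17.9 ± 0.0804 RPKM. It had 31.3 and 33.8 CPM from 6L and 11.9 and 10.1 CPM from 6S, and its range lay just above that of the subunits after it.

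Among the remaining V1 subunits each overlapped its neighbour in the order of means, though those of the rotor and stalk lay above ATP6V1A and ATP6V1H in both libraries. ATP6V1D, part of the central rotor, had 14.7 ± 3.89 RPKM, the stalk subunit ATP6V1E1 14.5 ± 3.55 RPKM and the rotor subunit ATP6V1F 13.6 ± 2.10 RPKM. The catalytic hexamer, in which A and B subunits alternate, was no higher: ATP6V1B2 had 11.8 ± 4.44 RPKM and ATP6V1A, which holds the catalytic site, 7.13 ± 3.80 RPKM. The regulatory subunit ATP6V1H had 5.40 ± 1.82 RPKM and was below ATP6V1A in library 3 but above it in library 1. By model, ATP6V1E1 (Scaffold31) had 20.7 CPM in library 1 and 32.7 CPM in library 3, and ATP6V1B2 (3S) had 15.2 and 27.7 CPM. The 3 models of ATP6V1A had 9.20 and 26.0 CPM (2L), 4.10 and 4.00 CPM (2S), and 2.24 and 4.62 CPM (8L). RefSeq gives the 8L locus a name of its own, atp6v1al.

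All 6 ubiquitous V0 subunits in the table were present too, in 10 of 12 models. ATP6V0E1, a small membrane subunit, had 46.8 ± 4.39 RPKM, nearly all from a model of only 369 bases on 3L with 18.3 CPM in library 1 and 16.0 CPM in library 3. Levels per kilobase of so short a model depend strongly on where its ends were drawn. ATP6V0C, the proteolipid that forms most of the rotating ring, followed at 24.0 ± 7.10 RPKM, with 9.74 and 14.3 CPM (9_10L) and 10.8 and 17.4 CPM (9_10S). ATP6V0D1, which couples the ring to the rotor, had 18.0 ± 1.62 RPKM and overlapped ATP6V0C. Most of its level came from ATP6V0D1 (4L), with 30.3 and 32.6 CPM, or 12.8 and 13.8 RPKM. The overlap rests on its 6L model, whose name is taken up below, at 3.84 and 5.16 RPKM. ATP6V0C had 19.0 and 29.1 RPKM in libraries 1 and 3.

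ATP6V0B, another ring subunit, had 12.1 ± 1.72 RPKM. The large a subunits, which form the proton channel and decide in which membrane the pump sits, were lowest, with ATP6V0A2 at 9.13 ± 1.58 RPKM and ATP6V0A1 at 7.09 ± 4.09 RPKM, and these overlapped. ATP6V0A2 (1L) had 18.9 CPM in library 1 and 24.1 CPM in library 3. ATP6V0A1 (9_10L) had 13.3 and 34.7 CPM, and ATP6V0A1 (9_10S) had 3.67 and 6.40 CPM. The 2 models under 1 CPM were ATP6V0D1 (6S), with 8 and 9 reads, and a model on 7S called ATP6V0E1, with 7 and 9 reads, whose locus RefSeq calls atp6v0e2.

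**Figure D2:**
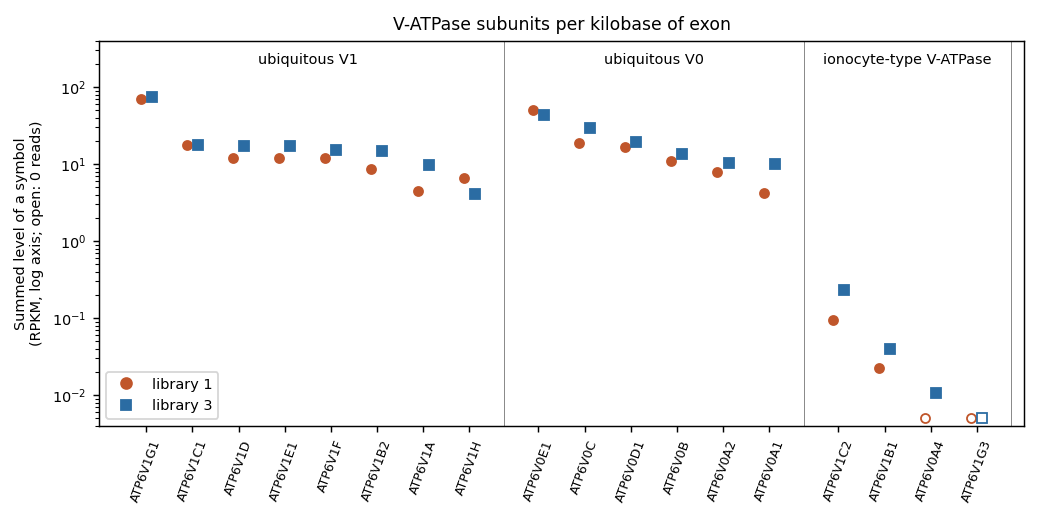
Summed level of the models of each V-ATPase subunit in RPKM (log axis) in library 1 (circles) and library 3 (squares), for ubiquitous V1, ubiquitous V0 and ionocyte-type subunits, with open markers for 0 reads. Every ubiquitous subunit lies above 4 RPKM and every ionocyte-type symbol of the table below 0.3 RPKM.

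The ionocyte-type V-ATPase subunits were at or near the limit of detection. ATP6V1C2, the second form of the C subunit, led with 5 reads in library 1 and 14 in library 3 (5L), or 0.193 and 0.479 CPM. ATP6V1B1, the B subunit of kidney intercalated cells and the inner ear, had 1 and 2 reads (1L), and ATP6V0A4, the kidney a subunit, had 0 and 1 (Scaffold31). Both models of ATP6V1G3, the kidney form of the stalk, had no read in either library, which allows a level of up to 0.116 CPM in library 1 and 0.103 CPM in library 3 (3 reads). By the symbols of the table, 6 of 9060 reads of V1 and V0 subunits in library 1 fell on these 4 symbols, a share of 0.0662% (95% Clopper-Pearson interval 0.0243 to 0.144%). In library 3 it was 17 of 13300, or 0.128% (0.0745 to 0.205%). The model of ATP6V0A4 lies across that of PRDM4 on the opposite strand, whose reads cannot be told apart from its own where exons overlap.

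The name of 1 more model bears on this group. ATP6V0D2 is the second form of the d subunit, which mammals use in kidney and bone-resorbing cells, and no model of the table carries that name. The model called ATP6V0D1 on 6L, however, shares 10 neighbouring gene names with the locus that RefSeq (assembly version 10.1) calls atp6v0d2.L, while ATP6V0D1 (4L) shares 11 with atp6v0d1.L. The 6L model spans 125970235 to 125989470 on the plus strand. It had 137 reads in library 1 and 208 in library 3, that is 5.29 and 7.11 CPM, or 4.50 ± 0.933 RPKM. Counted as ATP6V0D2, it would be the 1 ionocyte-type symbol of 5 at 1 CPM, above the 0.164 ± 0.0985 RPKM of ATP6V1C2. The ionocyte-type share of V1 and V0 reads would then be 143 of 9060, or 1.58% (1.33 to 1.86%), in library 1 and 225 of 13300, or 1.69% (1.48 to 1.93%), in library 3. This reading of the name was made after the values were seen. For the 6S model, which shares its symbol, no named RefSeq locus was matched.

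Ionocyte markers were low in the same libraries. Of 21 models of 6 symbols, 2 reached 1 CPM in both, CA2 (6L) at 5.99 and 6.36 CPM and SLC4A1 (9_10L) at 10.5 and 10.3 CPM, in libraries 1 and 3. FOXI1, the factor that specifies ionocytes, had its most reads in library 1 from 1S, with 34 there and 7 in library 3, and its 7L model had 12 in each. The pendrin gene SLC26A4 had at most 16 and 14 reads (6L), CA12 had 12 and 11 (3L), and UBP1 had 2 and 8 (9_10L). The marker list summed to 20.4 CPM in library 1 and 18.9 CPM in library 3, most of it from CA2 (6L) and SLC4A1 (9_10L). The part of these markers in the level of the pump subunits was not tested.

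The other tissue form in the table, ATP6V1G2, a stalk subunit of the mammalian brain, had 11 reads in library 1 and 16 in library 3 from 8S and none from 8L. ATP6V1E2, a testis form in mammals, is not among the symbols.

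Accessory proteins of the V-ATPase were well represented by ATP6AP2, the (pro)renin receptor, which is needed for V-ATPase assembly and also serves Wnt receptor complexes in Xenopus. ATP6AP2 (2L) had 73.2 CPM in library 1 and 107 CPM in library 3, and ATP6AP2 (2S) had 3.01 and 7.32 CPM, together 34.9 ± 10.5 RPKM. ATP6AP1, a glycoprotein bound to the V0 sector, had 4 models that RefSeq divides between a pair of genes. Those on chromosome 8, called atp6ap1.2 there, had 18.0 and 23.7 CPM from 8L and 7.50 and 10.9 CPM from 8S. Those on chromosome 3, called atp6ap1.1, had only 1.24 and 1.64 CPM from 3L and 0.580 and 0.445 CPM from 3S. The related ATP6AP1L had 5.18 and 4.10 CPM (1L).

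H,K pump transcripts were barely seen. None of 7 models reached 1 CPM, and 3 of them, ATP12A (7S), ATP4A (7S) and ATP4B (2L), had no read in either library. ATP4A, the alpha subunit of the gastric pump, had 2 reads in library 1 and 14 in library 3 from 7L, and 2 in each from 5L. ATP4B, its beta subunit, had 1 read in each from 2S, and ATP12A, the nongastric alpha subunit, had 3 and 2 from 7L. No named RefSeq locus was matched to ATP4A (7L) or ATP4A (5L), which held all reads of ATP4A. For a model with no read, the libraries allow up to 0.116 and 0.103 CPM.

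Calcium pumps of the plasma membrane came almost entirely from 2 genes. ATP2B4 (2S), a model of 9203 exonic bases, had 169 CPM in library 1 and 300.1 CPM in library 3. ATP2B1, the form most widely used in mammals, had 84.7 and 101 CPM from 3L and 11.8 and 10.6 CPM from 3S. Per kilobase they overlapped, at 25.5 ± 10.1 RPKM for ATP2B4 and 20.5 ± 2.10 RPKM for ATP2B1. In library 1 ATP2B4 held 48.8% and ATP2B1 50.6% of the signal of the 4 plasma membrane pump genes, and in library 3 they held 59.3% and 40.0%.

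The neuronal forms of this family were low. ATP2B3, known from mammalian nerve and muscle, had 16 and 31 reads (Scaffold50), and both models of ATP2B2, the pump of hair cells and neurons, had at most 3 reads in a library. Names are uncertain here as well, since RefSeq calls both loci of ATP2B2 atp2b4, and no named RefSeq locus was matched to ATP2B4 (2S).

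Among calcium and manganese pumps of the secretory pathway, ATP2C1, the Golgi pump of most cells, was present and ATP2C2, the form of glandular epithelia, was not detectable beyond 2 reads. ATP2C1 has 1 model on 6L, with 3.17 CPM in library 1 and 4.17 CPM in library 3, and 2 adjoining models on 6S that overlap by 38 bases. The pieces on 6S had 25.3 and 30.8 CPM over 6475 exonic bases and 9.47 and 11.7 CPM over 1530. Joined, the 6S pieces reached 4.34 and 5.30 RPKM in libraries 1 and 3, and the 6L model 0.664 and 0.875 RPKM.

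Genes that act with these pumps were read from lists of partners. Of 14 models for V-ATPase assembly and regulation, 10 reached 1 CPM in both libraries. OXR1, whose domain is found in proteins that bind the V1 sector, led with 139 CPM in library 1 and 166 CPM in library 3 (6L), and the assembly factor VMA21 had 19.7 and 17.5 CPM (8L). TCIRG1, the a subunit of osteoclasts and some lysosomes, had only 1.24 and 1.81 CPM (7L).

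Among partners of the sodium pump, 6 of 14 models reached 1 CPM in both libraries. FXYD3, a small membrane protein that binds the pump, stood out with 317 CPM in library 1 and 226 CPM in library 3 (7L), or 544 ± 129 RPKM from a model of 499 bases. NKAIN4, a protein of a family that interacts with the beta subunit, had 26.5 and 30.8 CPM (9_10L). FXYD1 and FXYD2, known from mammalian muscle and kidney, had at most 8 reads in any model and library.

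The calcium pump of muscle stores exceeded all plasma membrane pumps. ATP2A1, the pump of fast skeletal muscle, had 2182 CPM in library 1 and 3270 CPM in library 3 (Scaffold29), or 813 ± 229 RPKM. ATP2A2, the form of heart, slow muscle and most other cells, had 147 and 204 CPM from 1L and 121 and 182 CPM from 1S. The models of PLN and SLN, small inhibitors of these store pumps, had at most 3 reads each in a library. With only 158 (PLN) and 172 (SLN) exonic bases, their low counts bound the level less tightly than in longer models. Of 13 models in the list of calcium stores and exchangers, 6 reached 1 CPM, and of 4 models of proton exchangers all did, among them SLC9A3 (6L) at 19.0 and 22.1 CPM.

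L and S copies were compared in pairs, each a symbol with 1 model on the L and 1 on the S chromosome of the same number. Of 25 such pump pairs, 20 had at least 10 reads. The L copy was higher per kilobase in both libraries in 13 of 20, where this held for 51.2% of 5967 pairs of the whole table, and the S copy in 6, against 39.8%. ATP6V1D (8) alone changed order between libraries, with exons of 1595 (L) and 921 (S) bases. By reads its L copy was higher in both, with 256 and 372 against 136 and 254 in libraries 1 and 3. Its split of reads was not called different between libraries by Fisher's exact test (adjusted p = 0.16). No named RefSeq locus was matched to its S copy. The median log2 ratio of L over S (RPKM + 0.1 each) was 0.87 for the pump pairs and 0.24 for all pairs. In 2 of the pump pairs 1 copy had no read. With the reads of both libraries added in such pairs and 3 reads in place of 0, the medians were 0.98 for the pump pairs and 0.24 for all pairs. With at least 10 reads asked of each copy the medians were 0.98 over 18 pump pairs and 0.20 over 5069 pairs of the table. The L copy was then higher in both libraries in 12 of 18 pump pairs and the S copy in 5. Over the 5069 pairs these counts were 2576 and 2044. ATP4A (7), with 2 reads against 0 in library 1, is among the 13 of 20 but not among the 12.

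The L copy was at least 4-fold higher in both libraries in 4 of 20 pairs, where 14.7% of all pairs were, and 3 of these are described. In ATP6V0D1 (6), the pair that holds the locus RefSeq calls atp6v0d2, the L copy had 3.84 RPKM in library 1 and 5.16 RPKM in library 3, and the S copy had 0.231 and 0.230 RPKM. ATP2B1 stood at 16.9 and 20.1 RPKM from its L copy and 2.10 and 1.89 RPKM from its S copy. ATP6AP2 had 25.2 and 36.9 RPKM from L, against 2.21 and 5.37 RPKM from S, with exons of 2901 and 1362 bases. The L to S ratio of ATP6AP2 is therefore larger still by reads alone.

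With 0.1 RPKM added to each copy, an S copy was at least 4-fold higher in both libraries in 1 of 20 pairs, where 8.51% of all pairs were. That pair rests on the added value, since the L copy of ATP6V1G2 had no read. With 3 reads in its place the S copy was 3.79-fold higher in library 1 and 5.51-fold higher in library 3. These values leave out the counting error of the S copy, which had 11 and 16 reads. With 1 RPKM added to each copy its log2 ratio was -0.77, and with 10 reads asked of each copy 0 of 18 pairs favoured S 4-fold in both libraries. ATP1B1 came close, with 9.64 and 5.71 RPKM from its L copy and 34.4 and 32.6 RPKM from its S copy. ATP2C1 is not among the pairs, because its 6S copy is held in 2 models. With these joined, 6S was 6.53-fold higher than 6L per kilobase in library 1 and 6.06-fold higher in library 3. RefSeq gives these copies the opposite letters, as atp2c1.L on 6S and atp2c1.S on 6L. Symbols with a copy on a scaffold form no pair either. ATP1B2 had 2.14 and 1.29 RPKM from 3L against 0.364 and 0.223 RPKM from Scaffold20, whose RefSeq match lies on 3S. ATP6V1E1 had 8.92 and 14.1 RPKM from Scaffold31, whose match lies on 3L, against 3.07 and 2.91 RPKM from 3S. The most abundant beta gene was closer to even, as ATP1B3 had 279 and 199 RPKM from L and 154 and 133 RPKM from S. Reads that fit both copies may have been split or lost, and the sources used here do not state how the authors handled them.

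**Figure D3:**
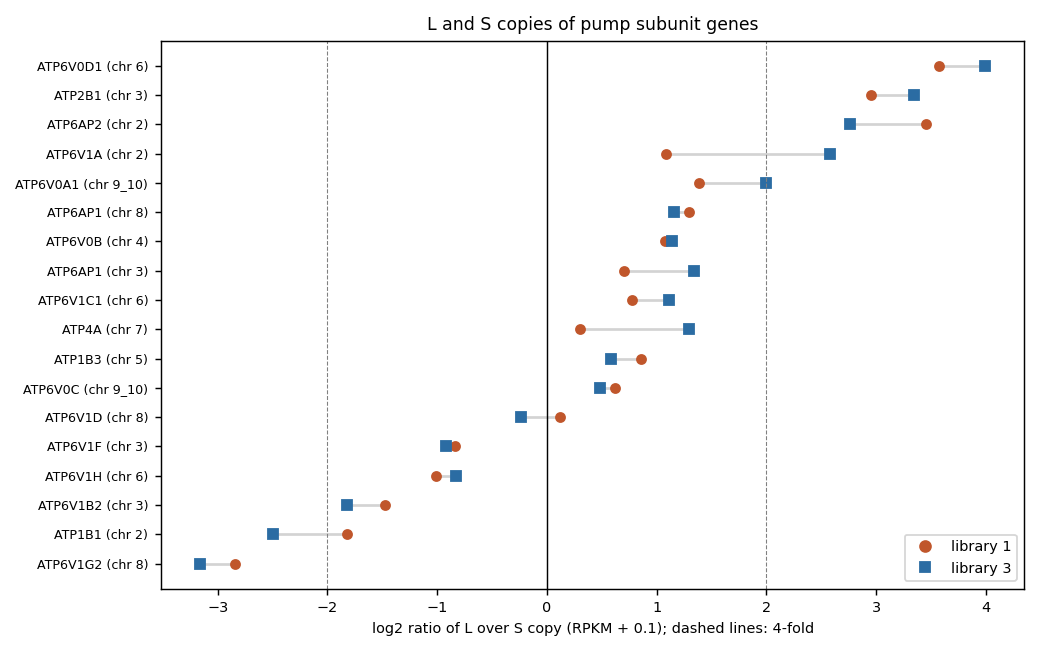
Log2 ratio of the L over the S copy per kilobase (RPKM + 0.1) for 18 of the 20 pump pairs with at least 10 reads, in library 1 (circles) and library 3 (squares), with dashed lines at 4-fold. Most pairs lie right of 0, 3 lie beyond the right dashed line in both libraries, and ATP6V1A moves furthest between libraries.

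The L to S split differed between libraries in 8 of 20 pump pairs by Fisher's exact test on reads (two-sided, adjusted over all 5967 pairs), where 30.9% of all pairs passed. This test compares 2 libraries and was chosen after the values were seen. The shift was at least 2-fold in 1 of 20 pump pairs, against 5.35% of all pairs. That pair was ATP6V1A (2), with 69.2% of its reads from the L copy in library 1 and 86.7% in library 3 (adjusted p = 1.52e-10). Its L copy had 238 reads in library 1 and 760 in library 3, while its S copy had 106 and 117.

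Both libraries are replicates of 1 group, and their ratio may hold technical differences as well as any between pools of explants. Reads were 50 or 100 bases long, the labels do not say which library had which, and the part of read length was not tested. Of 73 pump models, 58 had at least 10 reads, and an exact binomial test of reads (two-sided, adjusted over 18820 models) placed 5 of the 58 at least 2-fold apart, where 7.89% of all models were. All 5 were higher in library 3, against 3.92% of all models. None was at least 2-fold higher in library 1, against 3.96%. With no limit on size, 37 of 58 differed beyond counting error, where 52.5% of all models did, 9 of them higher in library 1 and 28 in library 3. Over all models 22.6% were so called higher in library 1 and 29.8% in library 3. The test covers counting error only, and it compares libraries, not conditions.

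ATP6V1A (2L), at 2607630 to 2630404 on the plus strand, differed most among the models with over 100 reads. It had 9.20 CPM in library 1 and 26.0 CPM in library 3 (log2 ratio of library 1 over library 3 of -1.49, adjusted p = 1.22e-49). ATP6V0A1 (9_10L) followed with 13.3 and 34.7 CPM (-1.38, adjusted p = 7.92e-59), and then ATP6AP2 (2S) with 3.01 and 7.32 CPM (-1.25, adjusted p = 1.35e-11). ATP6V1A (8L), with 2.24 and 4.62 CPM, lay at the limit (-1.01, adjusted p = 9.52e-06). It fell short of 2-fold with either other scaling, a larger pseudocount or a correction for exon length. The fifth, ATP4A (7L), rests on 2 and 14 reads, 6.20-fold higher in library 3 with a counting interval of 1.42 to 56.2 (adjusted p = 0.0184). It fell short of 2-fold with a pseudocount of 1 CPM.

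The V-ATPase leaned to library 3 and the beta subunits to library 1. Of 29 ubiquitous V1 and V0 models, 21 were higher in library 3, with a median log2 ratio of -0.31, where 54.4% of all models were higher there and the median was -0.05. Beyond counting error by the exact binomial test, 16 of the 29 were higher in library 3 and 3 in library 1. Over all models these shares were 29.8% and 22.6%. Against this lean, both models of ATP6V1H were higher in library 1, the 6L model with 3.71 and 2.46 CPM and the 6S model with 8.73 and 5.16 CPM in libraries 1 and 3. Of 7 beta models, 6 were higher in library 1, with a median of 0.49, where 45.6% of all models were higher there. Beyond counting error, 4 of the 7 were higher in library 1, against 22.6% of all models, and 0 in library 3, against 29.8%. The largest of these differences was in ATP1B1 (2L), at 0.75, and the most abundant in ATP1B3 (5L), at 0.49 (adjusted p = 5.05e-131).

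Other measures moved between the libraries as well. Over all models with 10 reads, the median ratio was 0.14 in the shortest of 10 exon length classes (172 to 1048 bases) and -0.24 in the longest (5204 to 20100 bases). With the median of models of like length subtracted, the ubiquitous V-ATPase median was -0.36 and the beta median 0.47, both close to the values without it. Epidermis markers, summed to 97.4 and 14.0 CPM in libraries 1 and 3, differed far more as a list than any pump gene at 1 CPM. Of 11 epidermis models with at least 10 reads, 10 were higher in library 1, 7 of them called at least 2-fold apart. These 7 were models of KRT12, GRHL3 and ITLN1 alone, and 3.96% of all models were called higher in library 1. ITLN1 (7L) had 30.4 and 0.718 CPM, but TFAP2A (6S) was nearly level at 0.657 and 0.650 CPM. The 1 model higher in library 3, TP63 (5L), had 1.24 and 1.98 CPM. The part of these markers in the differences of the pump genes was not tested. A difference under 1.5-fold was seen in 21 (72.4%) of the 29 pump models with a mean of at least 10 CPM, and in 88.0% of all models at that level.

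**Figure D4:**
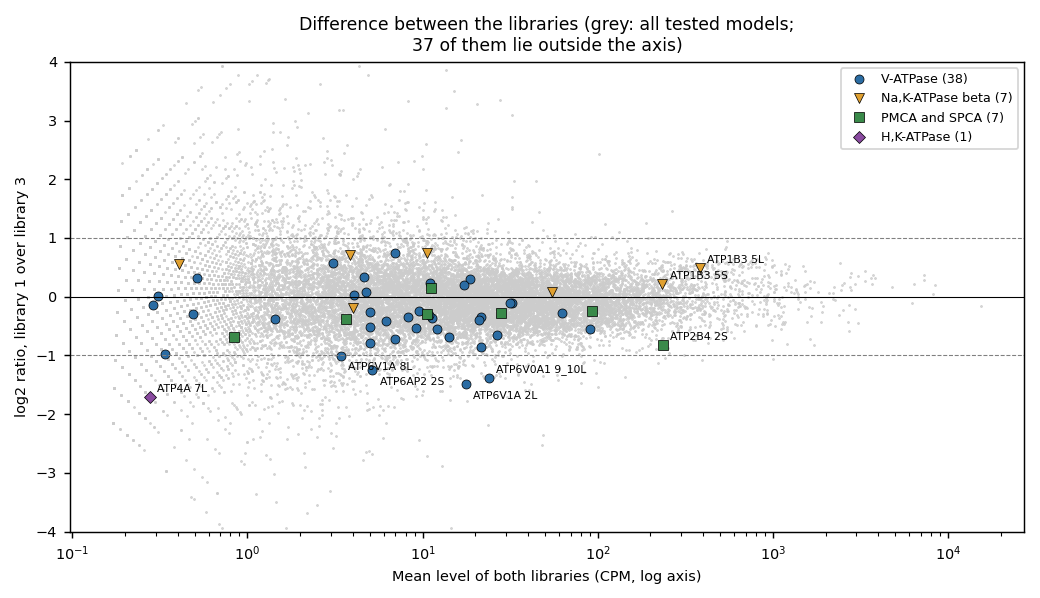
Log2 ratio of library 1 over library 3 against mean level (CPM, log axis) for 53 of the 58 pump models with at least 10 reads, coloured by family, over all 18820 models with 10 reads (grey). V-ATPase models lie mostly below 0 and beta subunits mostly above it, and the 5 labelled models below the lower dashed line are the ones called at least 2-fold apart.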

How the data were processed

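RNA of 2 libraries was analysed. The submitters' processing notes name FastQC, STAR 2.4.0k, HOMER and edgeR as tools. The deposited signal is, per the file headers, an exon read count per Mayball gene model on assembly 9.1, scaled by HOMER's simple normalization. Dividing by the size of 1 read (0.808 in library 1, 0.715 in library 3) gave whole numbers within 0.05 for 99.98% and 99.96% of nonzero values. Library differences used an exact binomial test of these reads (SciPy 1.17.1) with Benjamini-Hochberg adjustment over models with at least 10 reads, a pseudocount of 0.1 CPM and a fold of 2, which called 1484 of 18820 models. With 1 group, no count model between conditions could be fitted. edgeR 4.0.16 and DESeq2 1.42.0 gave only scaling factors. The script was tested on simulated data.

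RefSeq names (assembly 10.1) were matched by at least 3 shared names among 10 genes to each side. Of 73 models, 57 kept their name with the L or S letter left aside, 9 had another and 7 matched none. Named were the 4 highest models of each role, pumps outside the V-ATPase with at least 10 reads, ionocyte-type subunits, called library differences, pairs at least 4-fold apart and members without reads. Other models, partner genes and markers were named after their values were seen. Members and lists were chosen with earlier results of these data known. Values of some genes that the naming rule takes in are not reported here, though totals and counts include them. No sequences of these genes were used here.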

Additional observations from a re-analysis of the deposited data

How the results depend on the processing

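With TMM or DESeq2 scaling, 50 models reached 1 CPM, as in the main count, and leaving out each replicate gave 50 to 51. Per kilobase, 46 reached a level of 1. At 10 CPM there were 23 models, and counting symbols by their summed models, 27 of 38 reached 1 CPM. At 10 CPM there were 9 of 14 ubiquitous V-ATPase symbols. By RefSeq names, an alternative chosen after seeing the data, 1 ionocyte-type symbol reached 1 CPM in place of 0. The 5 models at least 2-fold apart between libraries became 17 at a fold of 1.5 (3 higher in library 1 and 14 in library 3), 3 with a pseudocount of 1 CPM, which shrinks low ratios, and 2 among models at 10 CPM, chosen after seeing the data. The other settings gave 4 or 5. Over the pump models, the median log2 ratio between libraries (1 over 3) of -0.30 was -0.25 with TMM, -0.26 with DESeq2 scaling, -0.27 with a pseudocount of 1 CPM and -0.33 corrected for exon length. The L over S median of 0.87 lay between 0.61 and 1.13, and leaving out each replicate gave 0.74 to 1.13. Of the single models and pairs named, 63 values kept their call or moved by less than their SD, 5 lost the 2-fold call and 7 moved further, with no sign changed. Many of the 63 could not have changed, so their number is no measure of stability. Leaving out a library always moves the ratio of a pair by less than its SD. Filters on reads, level or exon length leave a ratio as it is, and a fold of 1.5 keeps every 2-fold call.

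Leaving out a library gives no ratio between libraries, so that was not run for those results. No paired analysis was possible because all samples belong to 1 group. Depth limits the ionocyte-type and H,K pump models, where single reads decide a level.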
